A study of Homo sapiens with 18 samples.

Results

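The genes described here are 10 long noncoding RNA genes that carry small nucleolar RNAs (snoRNAs) in their introns: GAS5, SNHG1, SNHG5, SNHG6, SNHG7, SNHG8, SNHG12, SNHG15, SNHG16 and ZFAS1. They were found by the Entrez identifier of each symbol, and each had 1 entry among the 23604 entries listed in at least 1 RNA-Seq library. All 10 were listed in all 8 libraries and all 10 passed the filter on low counts, so no host gene was lost before the tests. The cells were MCF10A-ErSrc, a human mammary epithelial line that carries the oncoprotein v-Src fused to the ligand-binding part of the oestrogen receptor, so that tamoxifen switches the kinase on. Cells left untransformed (NT) or transformed with tamoxifen (TAM) were incubated for 4 h with the solvent DMSO or with triptolide (TPL, labelled TPL-125nM), a compound that binds XPB, a helicase of the transcription factor TFIIH. The TPL groups are named NT + TPL and TAM + TPL. Each of the 4 groups held 2 RNA-Seq libraries made from poly-A RNA, and 1 list of RNA polymerase II (RNAPII) peaks was given for each group. All groups come from this 1 engineered line and all carry the fusion gene.

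A snoRNA host gene is transcribed by RNAPII, its introns are spliced out, and the snoRNAs are trimmed from the introns and go to the nucleolus, where C/D snoRNAs guide 2'-O-methylation and H/ACA snoRNAs guide pseudouridylation of ribosomal RNA. The spliced exons that remain code for no long protein, and in several of these genes they are removed in the cytoplasm by nonsense-mediated decay. Many host genes, like the genes of ribosomal proteins, begin transcription at a cytosine followed by a run of pyrimidines.

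Windows around the transcription start site (TSS) are printed for 7 of the host genes that changed with TPL, because the start is where RNAPII was mapped in these samples and where such a run of pyrimidines would lie. Each runs 70 bases, from 45 before the TSS of the Ensembl canonical transcript of GENCODE, read from GRCh37, the build called hg19 in the peak lists. Capitals at the left mark TATAA where it begins 40 to 20 bases before the TSS. Capitals near the middle mark the longest tract of C followed by at least 4 pyrimidines that begins within 10 bases of the TSS, on the sense strand in both searches. The first 4 belong to genes that rose and the last 3 to genes that fell.
GAS5, chr1:173837103-173837172, minus strand: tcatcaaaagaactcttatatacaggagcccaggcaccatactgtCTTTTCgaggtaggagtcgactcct
ZFAS1, chr20:47895134-47895203, plus strand: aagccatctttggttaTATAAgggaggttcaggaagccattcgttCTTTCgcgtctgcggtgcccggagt
SNHG5, chr6:86388442-86388511, minus strand: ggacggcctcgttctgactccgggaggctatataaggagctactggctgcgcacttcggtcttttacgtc
SNHG8, chr4:119199818-119199887, plus strand: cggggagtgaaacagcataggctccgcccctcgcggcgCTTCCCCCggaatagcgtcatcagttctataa
SNHG7, chr9:139622612-139622681, minus strand: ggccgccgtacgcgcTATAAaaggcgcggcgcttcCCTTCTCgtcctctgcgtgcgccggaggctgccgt
SNHG16, chr17:74553812-74553881, plus strand: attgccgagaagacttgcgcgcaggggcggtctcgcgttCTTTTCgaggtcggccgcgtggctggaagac
SNHG15, chr7:45026536-45026605, minus strand: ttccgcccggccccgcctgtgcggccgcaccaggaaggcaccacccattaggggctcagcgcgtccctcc

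GAS5 and SNHG16 held the same tract, CTTTTC, although GAS5 rose and SNHG16 fell. The tract was found in 7 of 9 host genes searched (SNHG1 and SNHG12 in addition to those shown, and neither SNHG5 nor SNHG15, with SNHG6 not searched), in 71 of 75 ribosomal protein genes (94.7%) and in 33.4% of 14526 tested genes. It was about as frequent among all genes that rose with TPL (34.5%) as among all that fell (32.0%). TATAA at that distance was found in ZFAS1 and SNHG7, and in 3.81% of the 14526 genes. The marks are matches of letters, were not tested as sites and depend on the TSS used, and SNHG5 has 15 annotated TSSs.

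In NT cells the host RNAs spanned a wide range of levels. Levels are given as FPKM, which counts fragments relative to transcript length and library total and so allows genes of unequal length to be set side by side. GAS5 (mean 183 FPKM, SD 21.9, n = 2), ZFAS1 (161, SD 10.5) and SNHG16 (119, SD 30.3) were the highest. SNHG6 (95.1), SNHG5 (73.7), SNHG1 (61.0) and SNHG8 (40.6) lay between, and SNHG7 (27.1), SNHG12 (21.5) and SNHG15 (17.1) were the lowest. GAS5 and ZFAS1 overlapped (167.62 FPKM in the lower GAS5 library, 168.49 in the higher of ZFAS1), as did SNHG16 and SNHG6, with the lower SNHG16 library at 97.8 and the higher SNHG6 library at 103. FPKM is a share of the library, with no spike-in given in the sources used here, so a gene that rose did so relative to the other RNAs, and fewer cells and less RNA per cell cannot be told apart.

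TPL split the 10 host genes into 5 that rose and 3 that fell when its effect was averaged over NT and TAM cells. Those that rose were SNHG5, ZFAS1, GAS5, SNHG6 and SNHG8. Those that fell were SNHG15, SNHG16 and SNHG7. SNHG1 and SNHG12 did not pass the test. The test was the quasi-likelihood test of edgeR with Benjamini-Hochberg adjustment over 16948 genes, and a gene is said to rise or fall at an adjusted p of at most 0.05. Over all genes tested in this averaged comparison 25.6% rose and 26.1% fell, so both directions were common. The median log2 fold change was 0.28 over the host genes and 0.08 over all genes. With libraries scaled to equal GAPDH, which moved the latter to -0.16, 4 host genes rose and 4 fell.

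**Figure D1:**
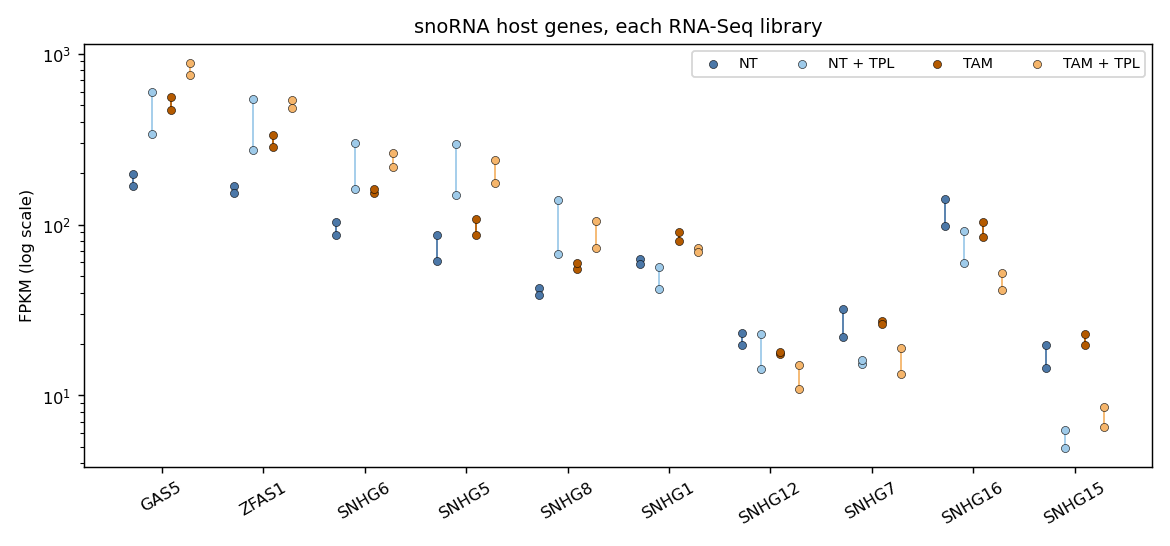
FPKM (log scale) of each snoRNA host gene in each of the 8 RNA-Seq libraries, with a point for each library and a line joining the 2 libraries of a group. The NT + TPL libraries of GAS5, ZFAS1, SNHG6, SNHG5 and SNHG8 lie above both NT libraries, and those of SNHG15 lie below them at 4.94 and 6.31 FPKM.

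GAS5 (Entrez 60674, chr1:173827697-173838020, minus strand), named for its high level in growth-arrested cells and host of 10 C/D snoRNAs, was the most abundant of the host RNAs. It went from 199 and 168 FPKM in NT to 340.05 and 593 with TPL. In TAM it went from 468 and 555 to 752 and 879 with TPL. Every TPL library was above both DMSO libraries of its state, a separation that 36.4% of all tested genes showed upwards and 32.7% downwards in NT, and 40% and 34.7% in TAM. In NT the rise was 1.35 on the log2 scale (SE 0.288, adjusted p = 0.0118 by edgeR). The TAM value was 0.62 (SE 0.282, adjusted p = 0.131), and the average over both states 0.99 (SE 0.202, adjusted p = 0.0063).

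ZFAS1 (Entrez 441951, chr20:47894715-47916137, plus strand), host of SNORD12, SNORD12B and SNORD12C, ran close to GAS5. TPL libraries of NT cells held 273 and 541 FPKM against 168 and 154 in their controls, and those of TAM cells 481 and 538 against 286 and 335. There was again no overlap. The fitted log2 difference was 1.33 in NT (SE 0.31, adjusted p = 0.0164 by edgeR), 0.67 in TAM (SE 0.305, adjusted p = 0.133) and 0.999 over both states (SE 0.217, adjusted p = 0.0082).

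SNHG5 (Entrez 387066, chr6:86360209-86388650, minus strand), host of SNORD50A and SNORD50B, had the largest rise of the 10. In NT it stood at 86.5 and 60.8 FPKM and with TPL at 149 and 295. In TAM it stood at 87.0 and 108 FPKM and with TPL at 174 and 240.06, so no TPL library overlapped with its controls. The ratio of mean FPKM was 3.01 in NT and 2.12 in TAM. On the log2 scale the NT rise was 1.60 (SE 0.377, adjusted p = 0.017 by edgeR), the TAM value 1.03 (SE 0.37, adjusted p = 0.0709) and the rise over both states 1.32 (SE 0.264, adjusted p = 0.00589).

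SNHG6 (Entrez 641638, chr8:67832796-67838633, minus strand), host of the C/D snoRNA SNORD87, rose from 103 and 87.0 FPKM in NT to 161 and 299 with TPL, and was at 152 and 161 FPKM in TAM beside 216 and 262 with TPL. SNHG8 (Entrez 100093630, chr4:119199858-119206471, plus strand), host of the H/ACA snoRNA SNORA24, rose from 42.6 and 38.6 FPKM in NT to 67.2 and 139 with TPL, and was at 55.1 and 59.6 FPKM in TAM beside 72.4 and 104 with TPL. Neither gene's TPL libraries overlapped with their controls. The NT rise was 1.28 on the log2 scale (SE 0.308, adjusted p = 0.0183 by edgeR) for SNHG6 and 1.24 (SE 0.364, adjusted p = 0.0354) for SNHG8. In TAM it was 0.56 (SE 0.301) and 0.51 (SE 0.358), neither past the threshold.

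SNHG15 (Entrez 285958, chr7:45022618-45026560, minus strand), host of SNORA9, fell the most. NT cells had 14.5 and 19.7 FPKM without TPL and 4.94 and 6.31 with it, and TAM cells 23.0 and 19.7 without and 6.54 and 8.55 with it. The groups were well apart in each state, the ratio of mean FPKM being 0.33 in NT and 0.35 in TAM. The fitted log2 difference was -1.60 in NT (SE 0.296, adjusted p = 0.00703 by edgeR), -1.54 in TAM (SE 0.292, adjusted p = 0.0084) and -1.57 over both (SE 0.208, adjusted p = 0.00102). SNHG15 was the only host gene that changed in both states taken singly.

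SNHG16 (Entrez 100507246, chr17:74553809-74667067, plus strand), host of the SNORD1 cluster, had 141 and 97.8 FPKM in NT and 59.5 and 91.5 with TPL. In TAM the pair was at 84.0 and 103 FPKM and fell short of both with TPL, at 51.8 and 41.4. The gene fell in TAM, at -1.05 on the log2 scale (SE 0.29, adjusted p = 0.0313 by edgeR). In NT the value was -0.67 (SE 0.287, adjusted p = 0.109), although the libraries did not overlap. SNHG7 (Entrez 84973, chr9:139615818-139622636, minus strand), host of SNORA17A and SNORA17B, had 32.2 and 22 FPKM in NT and 15.3 and 16.1 with TPL, and 27.4 and 26.3 FPKM in TAM beside 13.4 and 18.9 with TPL. No TPL library reached its controls. SNHG7 passed the test when the states were averaged, at -0.52 on the log2 scale (SE 0.146, adjusted p = 0.0215 by edgeR), and not in either state taken singly.

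SNHG1 and SNHG12 did not pass in any of the 3 TPL comparisons. SNHG1 (Entrez 23642, chr11:62619450-62623425, minus strand), host of 8 C/D snoRNAs, had 63.2 and 58.8 FPKM in NT beside 41.8 and 56.7 with TPL, and 79.8 and 90.1 FPKM in TAM beside 72.7 and 69.2 with TPL. Its TPL libraries were lower in each state without overlap, and the averaged log2 value was -0.31 (SE 0.134, adjusted p = 0.0918 by edgeR). SNHG12 (Entrez 85028, chr1:28905050-28909644, minus strand), host of SNORD99 and of 3 H/ACA snoRNAs, had 23.3 and 19.8 FPKM in NT beside 14.3 and 23.0 with TPL, and 17.6 and 17.9 FPKM in TAM beside 10.9 and 14.98 with TPL. Its NT and NT + TPL libraries overlapped, and the averaged log2 value was -0.35 (SE 0.216, adjusted p = 0.205).

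**Figure D2:**
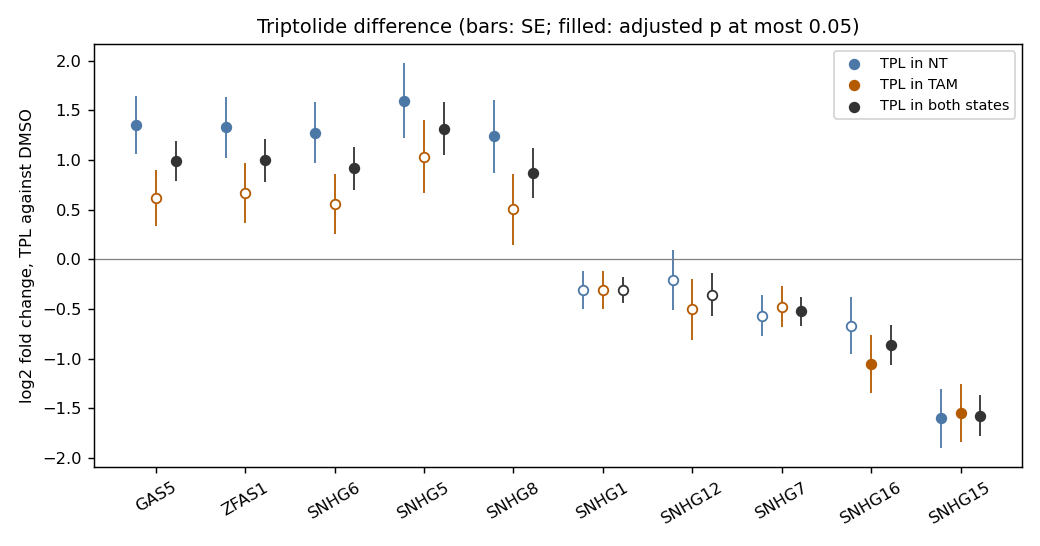
Fitted log2 fold change of each host gene with TPL in NT, in TAM and averaged over both states, with bars of 1 SE and points filled where the adjusted p reaches 0.05 or less. GAS5, ZFAS1, SNHG6, SNHG5 and SNHG8 lie above 0 and the other 5 at or below 0 in each comparison (SNHG12 in NT turns to 0.01 with upper quartile normalization), and SNHG15 is lowest at -1.57 over both states.

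Counted within a state, 5 host genes rose and 1 fell in NT, where 17.2% of all genes rose and 19.8% fell. With GAPDH scaling, under which the median of all genes in NT went from 0.09 to -0.26, it was 2 rises and 3 falls. In TAM 0 rose and 2 fell, against 14.3% and 18.6% of all genes. The TAM count moved with the fit, to 3 rises and 2 falls with DESeq2 or where each library had to hold 10 counts, 4 and 2 with only the compared groups, and 0 and 5 without the length trend. The study's methods set stricter thresholds, 0.001 for the adjusted p and 1.2 for the size of the log2 value, at which edgeR called 0 host genes in NT (1.22% of all genes higher, 2.71% lower), in TAM (0.844% and 2.04%) and over both states (3.35% and 6.76%). At an unadjusted p below 0.05 there were 7, 3 and 8 host genes in the same order. Over all 16948 genes there were 8108, 7640 and 9942. DESeq2 called 6, 1 and 2 host genes at the strict thresholds, where its share over all genes was not counted. The 5 host genes that rose had higher values in NT than in TAM, but the difference between the states was not past the test: the log2 difference lay between -0.73 and -0.56 for those 5, with SE between 0.4 and 0.521, and between -0.39 and 0.09 for the other 5. With edgeR 0 of 10 passed at an adjusted p of 0.05, where 0.0885% of all genes had a higher and 0.0767% a lower response in TAM. At an unadjusted p below 0.05 it was 0 of 10, beside 1799 of 16948 genes. DESeq2 passed 0 host genes, beside 275 genes with a higher and 244 with a lower response. Limma also passed 0, beside 43 and 32 genes with 1 added to FPKM and 21 and 23 with 0.1 added.

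The counts within a state moved with single libraries. Without NT replicate 1 the NT comparison gave 2 rises and 1 fall, and without NT replicate 2 it gave 0 rises and 1 fall, SNHG15. The sizes moved less than the calls: the 5 genes were at 1.23 to 1.86 on the log2 scale without the first and 1.15 to 1.35 without the other. NT + TPL replicate 2 was above replicate 1 in all 10 host genes, by a median of 0.82 on the log2 scale, a difference larger than in the other pairs. Without it the log2 fold changes of the 5 genes in NT were between 0.60 and 0.99, 3 of them passed and 3 host genes fell. In TAM, 0 host genes passed without TAM replicate 1 or TAM + TPL replicate 1, and only the fall of SNHG15 passed without TAM replicate 2 or TAM + TPL replicate 2. Leaving out either NT + TPL library from the shared fit gave 4 rises and 2 falls in TAM, the rises being SNHG5, ZFAS1, GAS5 and SNHG6. Over both states 4 or 5 rose and 2 to 4 fell whichever library was left out.

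Transcript length ran with these values. The 5 host genes that rose were the 5 shortest, from 472 nucleotides for SNHG6 through 524 for SNHG5, 553 for SNHG8 and 651 for GAS5 to 692 for ZFAS1. SNHG12 followed at 758 and SNHG15 at 837, and SNHG1 (1134), SNHG7 (1269) and SNHG16 (2481) were the longest. Among the 618 tested genes of 400 to 800 nucleotides the median log2 value was 0.74 for NT cells and 0.39 for TAM cells, against -0.10 and 0.00 for genes of 3200 nucleotides or more. The 5 host genes lay above that median in both states, and SNHG12, of the same length range, lay below it.

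With the length trend of every library removed through an offset, an alternative chosen after the data were seen, 4 host genes rose over both states: SNHG5 at 0.84, ZFAS1 at 0.56, GAS5 at 0.54 and SNHG6 at 0.43 on the log2 scale. SNHG8 was at 0.39 (SE 0.197, adjusted p = 0.137 by edgeR). Under it 5 fell, SNHG15 at -1.96, SNHG16 at -0.87, SNHG12 at -0.76, SNHG7 at -0.73 and SNHG1 at -0.57. The order of the genes was kept at both ends, with SNHG5 the highest and SNHG15 the lowest.

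**Figure D3:**
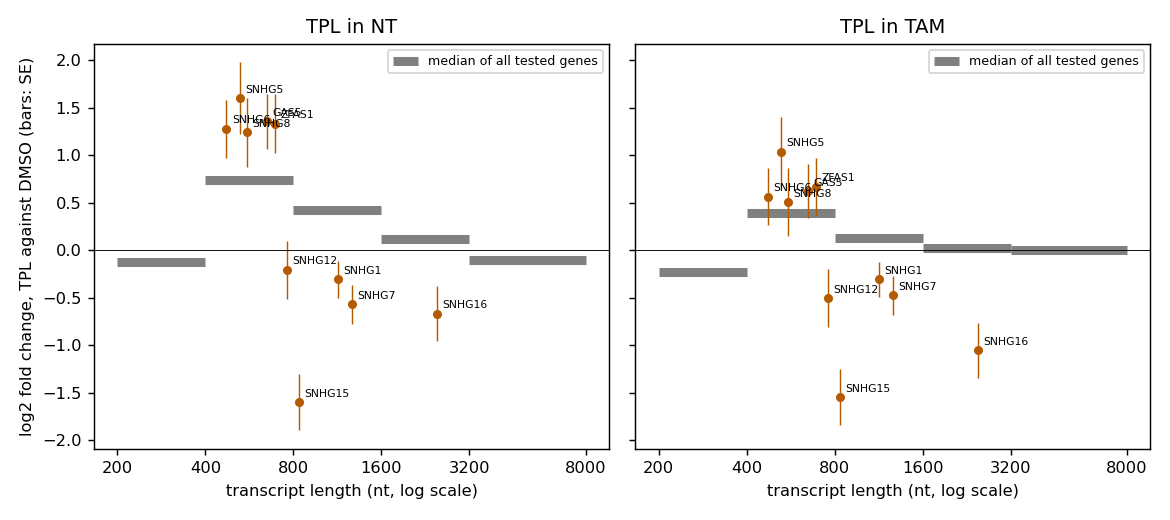
Fitted log2 fold change with TPL in NT (left) and TAM (right) against transcript length in nucleotides (log scale), with host genes as points with bars of 1 SE and the median of all tested genes in each length range as grey bars. The grey bar at 400 to 800 nucleotides is at 0.74 on the left and 0.39 on the right, and the 5 shortest host genes lie above it.

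Transformation raised GAS5. The RNA was at 183 FPKM (SD 21.9, n = 2) in NT and 511 (SD 61.5) in TAM, which in the fit was 1.498 on the log2 scale (SE 0.289, adjusted p = 0.0273 by edgeR). It was the only host gene past the test in this comparison, in which 3.46% of all genes rose and 3.39% fell. ZFAS1 was at 0.95 (SE 0.308, adjusted p = 0.14) and SNHG6 at 0.73 (SE 0.306, adjusted p = 0.244), and in both the TAM libraries lay above the NT libraries. In all, 7 host genes were higher in TAM without overlap, SNHG12 was lower, and SNHG7 and SNHG16 overlapped. With 2 libraries a group such separation is common, at 24% of all tested genes higher and 28.7% lower. At the strict thresholds 0 host genes were called by edgeR (0.378% of all genes higher, 0.277% lower). DESeq2 called 1, and its share over all genes was not counted. At an unadjusted p below 0.05 by edgeR there were 4 host genes, beside 3380 of 16948 genes.

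The GAS5 call did not hold without NT replicate 1, NT replicate 2 or any 1 of the 4 TAM and TAM + TPL libraries, with log2 fold changes between 1.36 and 1.62 and adjusted p between 0.0575 and 0.172. Without either NT + TPL library 3 host genes passed, GAS5, ZFAS1 and SNHG6. With libraries scaled to equal GAPDH, which moved the median of all genes from -0.03 to -0.50, GAS5 was at 1.04 (adjusted p = 0.0777 by edgeR).

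The RNAPII peak lists give a start and an end for each peak, with no height. A peak contained the canonical TSS of 10 host genes in NT and 9 in TAM, and of 8 in each state with TPL. Among 15031 tested genes with a canonical TSS the shares were 63.3% in NT and 55.8% in TAM, and with TPL 50.5% and 49.6%. among the 5562 of these genes with a mean of 10 FPKM or more without TPL they were 88.8% and 82.4%, and with TPL 74.1% and 75.4%. The exceptions were SNHG15 with TPL, whose peaks began 108 and 21 bp inside the gene, and SNHG12 outside NT, whose peaks began 558 to 804 bp inside it. Each host gene has 5 to 26 annotated TSSs, and all 10 had a peak over at least 1 of them in every list. Over all 15031 genes this share was 67.5% in NT and 61.5% in TAM, and with TPL 54.3% and 53.4%.

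Peaks at the host genes were long in NT. The median peak width was 6477 bp over the host genes and 730 bp over all genes with a peak. In NT the peak ran at least 2000 bp past the TSS in 10 of 10 host genes and in 2.51% of the 15031 genes. Such peaks were also found at 62 of 79 ribosomal protein genes, 5 of 12 other noncoding hosts and 12 of 32 coding hosts. In TAM such peaks were found at 5 host genes (GAS5, SNHG1, SNHG6, SNHG8 and ZFAS1) and in 1.32% of all genes. The threshold of 2000 bp was chosen after the widths were seen, and the widths carry no replicate.

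With TPL the host genes parted. The peak ran at least 2000 bp past the TSS in 4 of them in NT + TPL (0.539% of all genes) and in the same 4 in TAM + TPL (0.519% of all genes): GAS5, ZFAS1, SNHG5 and SNHG8. In TAM without TPL the SNHG5 peak had not reached that far. At GAS5 the peak of NT cells reached 8373 bp past the TSS without TPL and 8947 with it, and that of TAM cells 7898 without and 7373 with it. At ZFAS1 the values were 13201 and 15004 bp in NT and 6043 and 6052 bp in TAM. At SNHG8 they were 4559 and 4737 bp in NT and 4505 and 4672 bp in TAM, so these 3 genes had nearly the same downstream reach with TPL as without.

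SNHG5 was longer with TPL than without it, at 12124 against 6715 bp for NT cells and 9947 against 1113 bp for TAM cells. All 4 of these genes are among the 5 whose RNA rose. The upstream edge drew in with TPL in both states at every host gene, whatever the downstream reach. At SNHG8 it went from 971 to 597 bp before the TSS in NT and from 615 to 421 bp in TAM. At SNHG7, whose RNA fell, it went from 1444 to 161 bp in NT and from 362 to 199 bp in TAM. The share of all genes whose upstream edge drew in was not counted. The median upstream reach over all genes with a peak was 318 bp in NT and 281 with TPL, and 228 in TAM and 231 with TPL.

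At SNHG1, SNHG6, SNHG7, SNHG15 and SNHG16 the downstream edge lay nearer to the start with TPL in both states. Such a shift was common. Of all genes with a peak over the canonical TSS in both lists of a state, 60.2% of 7313 showed it in NT and 44.7% of 6789 in TAM. Of the 8 host genes with both peaks, SNHG15 not among them, 4 showed it in NT and 5 in TAM. At SNHG6, whose RNA rose, the downstream edge reached 5853 bp past the TSS in NT but 656 with TPL, and 2613 in TAM but 692 with TPL. At SNHG1 it went from 5544 to 906 bp in NT and from 4966 to 714 bp in TAM. At SNHG7 it went from 7226 to 759 bp in NT and from 801 to 403 bp in TAM.

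SNHG16 followed the same course, from 4562 to 221 bp in NT and from 769 to 221 bp in TAM, and SNHG15 from 3376 to 546 bp and from 560 to 509 bp. The SNHG12 peaks outside NT ended 2631 to 3455 bp past the TSS but did not contain it, and so were not counted among those of 2000 bp or more. The 3 host genes whose RNA fell were thus all among those with short peaks under TPL. Of all genes with a peak past 2000 bp in NT, 60 of 377 (15.9%) kept it with TPL, against 4 of 10 host genes and 10 of 62 ribosomal protein genes. It was 1 of 5 for other noncoding hosts, 3 of 12 for coding hosts and 29 of 123 for all genes that rose over both states. Of those in TAM, 47 of 198 (23.7%) kept it, against 3 of 5 host genes. There it was 1 of 2 for other noncoding hosts, 2 of 5 for coding hosts and 6 of 19 for ribosomal protein genes. For all genes that rose it was 20 of 56.

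**Figure D4:**
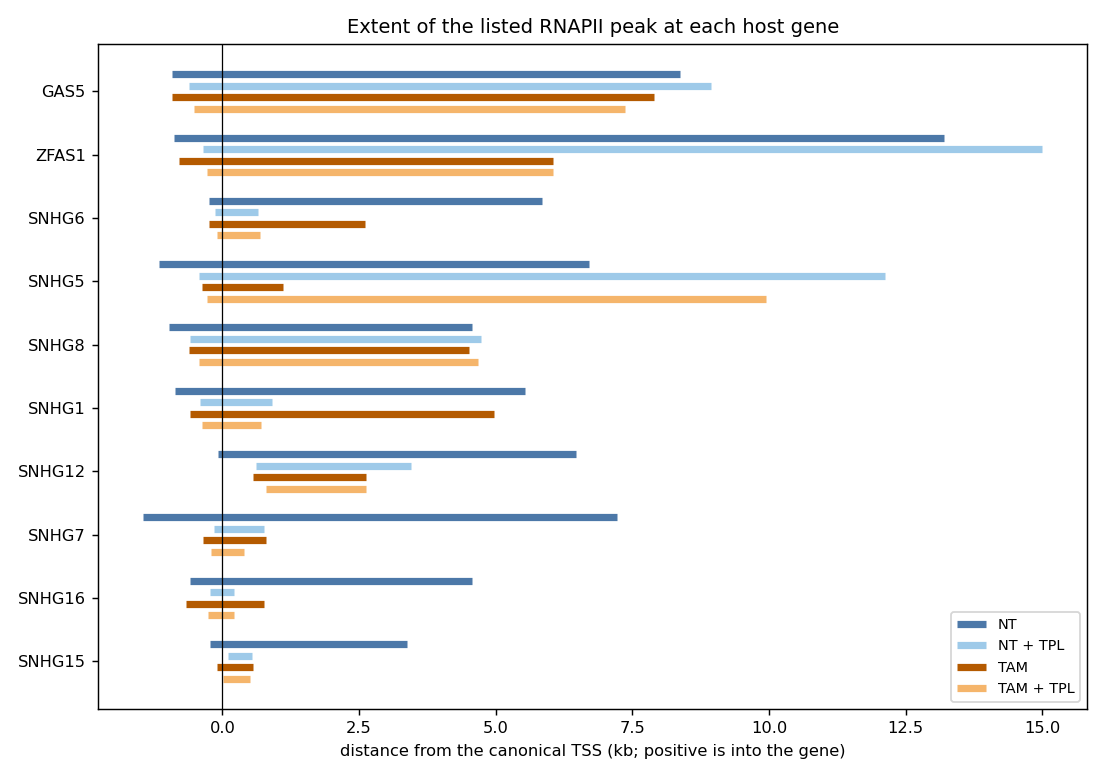
Extent of the listed RNAPII peak at each host gene in the 4 groups, as distance in kb from the canonical TSS with positive values into the gene. With TPL the bars of GAS5, ZFAS1, SNHG5 and SNHG8 reach more than 4.5 kb into the gene, while those of SNHG1, SNHG6, SNHG7, SNHG15 and SNHG16 reach less than 1 kb into it.

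Neighbouring genes share some of this sequence. An annotated start of another gene on the opposite strand lay 82 bp upstream of SNHG1 (SLC3A2, an amino acid transporter subunit), 93 bp upstream of GAS5 (ZBTB37, a zinc finger gene) and 216 bp upstream of ZFAS1 (ZNFX1, also a zinc finger gene). SLC3A2 rose over both states by 0.50 on the log2 scale (adjusted p = 0.00303 by edgeR) where SNHG1 was at -0.31. ZNFX1 was at -0.13 (adjusted p = 0.384) where ZFAS1 rose. A noncoding gene with no symbol also starts on the opposite strand 92 bp upstream of SNHG16. A peak edge upstream of these 4 starts therefore cannot be assigned to 1 gene. A protein-coding gene with no symbol starts 15 bp from SNHG5 on the same strand and shares 799 exonic bases with it, so the reads counted for SNHG5 could include reads of that gene.

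Exons of the canonical transcripts of SNHG6, SNHG7, SNHG8 and SNHG12 overlap exons of the opposite strand (MCMDC2, DIPK1B, PRSS12 and TRNAU1AP). The strand setting of the counting is not given in the sources used here, so reads from the shared stretches cannot be told apart. These partners were mostly low beside the hosts, at most 11.4 FPKM, except TRNAU1AP, at 6.13 to 30.6 FPKM, which shares 8 bases with SNHG12.

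Of 36 snoRNA symbols assigned to these hosts, 35 lie inside the host's span in RefSeq and 29 had an entry in the RNA-Seq files. Poly-A libraries capture mature snoRNAs poorly, and their counts were low. Summed over the 29 entries they were 118 and 167 in NT beside 67 and 75 with TPL, and 118 and 111 in TAM beside 44 and 74 with TPL. Both TPL libraries were below both controls in each state. The 224 other snoRNA entries went the other way in their sum, at 278 and 244 counts per 1000000 in NT beside 337 and 696 with TPL, and 222 and 258 in TAM beside 298 and 459 with TPL. In that unit the 29 entries were at 14.6 and 20.6 in NT beside 8.75 and 9.96, and 14.1 and 13.3 in TAM beside 5.9 and 9.09. Of the 224, the entries with any count did not become more numerous. They were 123 and 142 in NT beside 88 and 94 with TPL, and 140 and 122 in TAM beside 95 and 122. The host RNAs themselves summed to between 5385 and 11629 counts, so the snoRNA entries held 17.3 and 31.0 counts for every 1000 host counts in NT beside 10.8 and 7.02 with TPL, and 14.3 and 11.6 in TAM beside 4.69 and 6.36 with TPL.

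The 3 snoRNAs of ZFAS1 are printed with their boxes, since they sit in introns of a host that rose while their own summed counts were lower. They come from the GENCODE transcripts on GRCh37, and capitals mark the C box core TGATGA and the D box CTGA.
SNORD12C, chr20:47895477-47895565, intron 1: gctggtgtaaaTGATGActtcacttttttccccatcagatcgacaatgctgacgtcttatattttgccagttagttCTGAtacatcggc
SNORD12B, chr20:47896856-47896946, intron 2: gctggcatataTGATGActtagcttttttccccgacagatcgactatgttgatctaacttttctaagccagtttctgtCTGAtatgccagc
SNORD12, chr20:47897220-47897309, intron 3: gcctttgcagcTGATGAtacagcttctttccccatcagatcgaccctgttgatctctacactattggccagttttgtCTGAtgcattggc

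The 3 together had 59 counts in the 4 DMSO libraries and 26 in the 4 TPL libraries, while ZFAS1 had 5207 and 9456. Per 1000 host counts this was 10.6 and 22.1 in NT beside 2.80 and 3.72 with TPL, and 14.3 and 4.33 in TAM beside 2.92 and 1.70 with TPL. GAS5 showed the same ordering, with 7 snoRNA entries at 201 counts without TPL and 85 with it beside 7216 and 12479 host counts. For SNHG1, whose own RNA did not pass the test, 8 entries had 114 counts without TPL and 40 with it. SNHG12 differed, with 91 counts without TPL and 95 with it, which for every 1000 host counts was 216 and 237 in NT beside 333 and 344 with TPL, and 120 and 182 in TAM beside 200 and 133 with TPL. These sums are descriptions with no test.

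Only 5 snoRNA entries passed the filter on low counts, and over both states 1 of them fell (20%, beside 26.1% of all genes). Among the 85 tested genes shorter than 400 nucleotides, 23.5% rose and 23.5% fell over both states, with a median log2 value of -0.42. SNORD47, a C/D snoRNA of GAS5, had 17 and 25 counts in NT beside 7 and 1 with TPL, and 14 and 24 in TAM beside 3 and 4 with TPL. It fell over both states, at -2.33 on the log2 scale (SE 0.599, adjusted p = 0.0158 by edgeR), where GAS5 rose. SNORD76, also in GAS5, was at -0.72 (SE 0.502), SNORD22 in SNHG1 at -0.51 (SE 0.449), and SNORA61 and SNORA44 in SNHG12 at -0.08 (SE 0.448) and 0.18 (SE 0.51), none past the threshold.

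**Figure D5:**
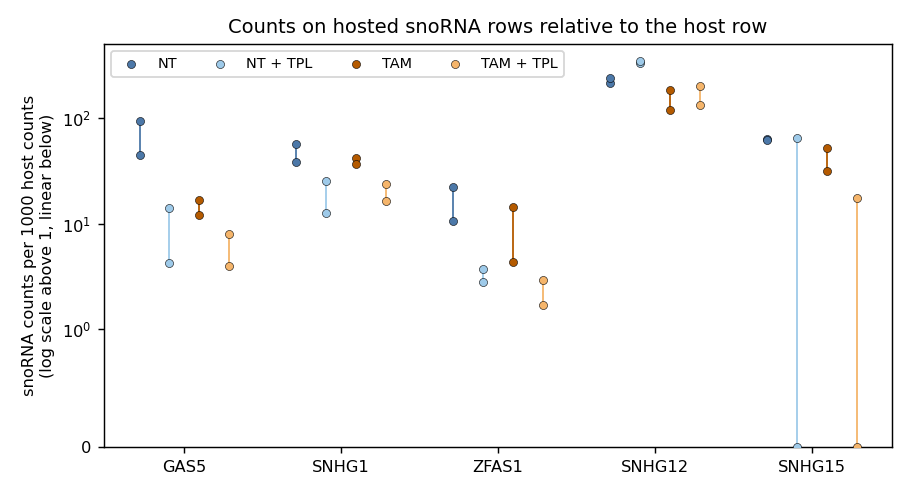
Counts on the snoRNA entries of 5 hosts for every 1000 counts on the host entry in each library (log scale above 1, linear below), with a line joining the 2 libraries of a group. The TPL libraries of GAS5, SNHG1 and ZFAS1 lie below their DMSO libraries, and those of SNHG12 do not.

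Other noncoding snoRNA hosts also held rises and falls. Of 12 tested (25.6% of all genes rose and 26.1% fell), 7 rose and 2 fell over both states, with a median log2 value of 0.71, and with GAPDH scaling 5 rose and 2 fell. SNHG21, at 1.27 and 0.55 FPKM in NT and 6.02 and 4.02 in NT + TPL, rose by 2.29 on the log2 scale (SE 0.436, adjusted p = 0.00476 by edgeR). SNHG19 rose by 2.07 (SE 0.342, adjusted p = 0.00266). SNHG17, from 28.6 and 20.7 FPKM in NT to 6.51 and 8.19 in NT + TPL, fell by 1.34 (SE 0.16, adjusted p = 0.000667), and SNHG3, from 106 and 93.6 to 50.5 and 32.2, fell by 1.21 (SE 0.141, adjusted p = 0.000603).

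Among 32 protein-coding hosts there were 8 rises (25%, beside 25.6% of all genes) and 15 falls (46.9%, beside 26.1%), with a median of -0.32 (10 and 12 with upper quartile normalization, 4 and 18 with GAPDH scaling). The translation factors EIF5 and EEF2 rose by 0.81 (SE 0.095) and 0.79 (SE 0.098). The ribosome biogenesis factors PPAN and WDR43 fell, at -1.86 (SE 0.214) and -2.57 (SE 0.149) on the log2 scale, WDR43 from 39.7 and 48.0 FPKM in NT to 6.27 and 8.5 in NT + TPL.

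Genes for the proteins that bind or assemble snoRNAs did not rise: 0 rose and 10 fell among 17 entries, and with upper quartile normalization 1 rose and 7 fell. NAF1, an assembly factor of H/ACA particles, fell by 2.14 (SE 0.131, adjusted p = 5.59e-05 by edgeR), and DKC1, the pseudouridine synthase of those particles and itself in the list of coding hosts, fell by 1.65 (SE 0.192, adjusted p = 0.000598). Among 17 entries of nonsense-mediated decay factors 2 rose (11.8%, beside 25.6% of all genes) and 6 fell (35.3%, beside 26.1%). EIF4A3, a core of the exon junction complex, rose by 1.35 (SE 0.141) and UPF1, the central helicase of the pathway, by 0.98 (SE 0.133). MAGOHB, another exon junction component, and SMG9, a regulator of the kinase SMG1, fell, at -1.999 (SE 0.424) and -2.56 (SE 0.227). The median of this list was -0.21 and turned to 0.02 with upper quartile normalization.

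Ribosomal protein entries, whose genes mostly held the pyrimidine tract, were higher as a group: 75 of 93 rose and 0 fell over both states, with a median of 0.65. Many of these genes have near-identical pseudogene copies that could share reads, so single values are uncertain. The count rested on the NT comparison and on scaling, with 75 rises in NT and 1 in TAM, and with 22 rises and 1 fall over both states when libraries were scaled to equal GAPDH. Without the length trend it was 42 rises and 1 fall. RPL34 rose by 1.27 (SE 0.256) and RPS21, at 418 nucleotides, by 1.24 (SE 0.295). The median over all 10 host genes, rising or not, was lower than that of the ribosomal protein entries, at 0.28 over both states.

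The libraries were of near equal depth, with 7461309 to 8349448 estimated counts, and TMM factors of 0.975 to 1.03. Epithelial markers of the line were plain but moved with the groups: the summed level of the 12 entries was 19485 and 17600.09 FPKM in NT beside 14559 and 11502 with TPL, and 8024 and 8344 in TAM beside 4757 and 4379 with TPL. Most of that sum came from the keratins KRT5, KRT6A and KRT17, and single markers did not all move with it. KRT5, a basal keratin, had means of 6013 FPKM in NT and 1308 in TAM, while EPCAM had 24.6 in NT and 39.3 in TAM. With TPL over both states 3 of the 12 entries rose and 6 fell (25.6% and 26.1% of all genes). In TAM against NT 0 rose and 4 fell (3.46% and 3.39%). Of the markers of blood, vessel and stromal cells, PTPRC, CD3E, PECAM1, VWF, COL3A1 and PDGFRB were at 2.14 FPKM or lower in every library. COL1A1, a stromal collagen, was higher, at 2.2 to 6.14 FPKM in NT and NT + TPL, and at 0.5 to 1.2 in TAM and TAM + TPL. ESR1, whose ligand-binding part the fusion carries, was at 36.9 to 248 FPKM, and CD68, a marker of macrophages that other cells also express, had means of 47.1 FPKM in NT and 83.0 with TPL, and of 291 in TAM and 440 with TPL. The summed level of the 9 entries for other cell types was 161 to 301 FPKM in NT and NT + TPL and 351 to 514 in TAM and TAM + TPL. The part of any other cell type in these results was not tested.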

How the data were processed

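RNA-Seq values were deposited for 8 libraries. The authors enriched poly-A RNA, aligned reads to reference transcripts with Bowtie2 and estimated each gene with RSEM: the deposited expected counts are not normalized, and the deposited FPKM values divide by transcript length and mapped fragments. Genes without a read are not listed and were taken as 0. RNAPII peaks were called by the authors on hg19 over input with MACS, and 1 list of starts and ends per group was deposited. How the 2 ChIP samples of a group were joined is not given in the sources used here. Lists count positions from 0, the text from 1.

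Expected counts were rounded and tested in edgeR 4.0.16 (quasi-likelihood, TMM, filterByExpr, 1 fit of all 4 groups, 16948 genes, Benjamini-Hochberg adjustment), with DESeq2 1.42.0 and limma 3.58.1 (log2 of FPKM plus 1 or 0.1) as alternatives. The common dispersion was 0.099. The script was tested on simulated data. Symbols came from gene identifiers or accessions for 99.4% of 23604 entries. TSSs and exons came from GENCODE 44 lifted to GRCh37. Spans of snoRNA genes in RefSeq (GRCh38) were used for containment only.

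Replicates are labelled as separate samples, and p-values measure the spread between them. The host genes and all lists were chosen with earlier results of these data known. Named genes were all 10 hosts, the tested snoRNAs of these hosts and, for each other list, up to 2 largest rises and 2 largest falls over both states.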

Additional observations from a re-analysis of the deposited data

How the results depend on the processing

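Over both states the number of host genes that changed with TPL (8) was between 6 and 9 under every alternative and every left-out library. The signs of the 5 rises and 3 falls over both states were kept throughout. The count in NT (6) went to 3 with only the compared groups in the fit, and ranged from 1 to 6 with 1 library left out. The count in TAM (2) went to 5 with DESeq2 (3 rose), 5 where each library had to hold 10 counts (3 rose), 6 with only the compared groups (4 rose), 4 with limma on log2(FPKM + 1) (1 rose), 5 without the length trend (0 rose) and 1 with a replicate block (0 rose), and ranged from 0 to 6 with 1 library left out. The count in TAM against NT (1) went to 2 with DESeq2, 2 with counts summed over the entries of a symbol, 2 without the length trend, 3 with only the compared groups and 0 with GAPDH scaling, and ranged from 0 to 3. The cause of these moves was not tested.

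At the strict thresholds (0 in each comparison), DESeq2 called 6 in NT, 1 in TAM, 2 over both states and 1 in TAM against NT. The share of all genes at these thresholds was counted only for the edgeR fit described above. The DESeq2 counts and the counts that follow therefore have no share to be set beside. Over both states 2 were called where each library had to hold 10 counts or with summed entries, and 1 with DESeq2 size factors, without the filter, with either limma fit, or without the length trend, and 0 to 1 with 1 library left out.

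The signs that turned under an alternative were these. SNHG12 in NT was 0.01 with upper quartile normalization and between -0.62 and 0.12 with 1 library left out. In TAM against NT, SNHG5 was -0.03 and SNHG15 -0.15 with GAPDH scaling, and SNHG7 was 0.01 with either limma fit and between -0.35 and 0.11 with 1 library left out. Of the differences between states with 1 library left out, SNHG5 ran from -0.99 to 0.05, SNHG7 from -0.15 to 0.31, SNHG12 from -0.62 to 0.12 and SNHG15 from -0.18 to 0.27.

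Same-numbered replicates showed no large shared deviation over all genes (correlations of -0.135 to 0.05). Whether they were prepared together is not given in the sources used here. With the replicate block 5 rose and 3 fell over both states, 6 changed in NT, 1 in TAM and 1 in TAM against NT. With the NT + TPL numbers crossed in the block, chosen after seeing the data, the counts were 5 in NT, 2 in TAM and 8 over both states. GAPDH scaling moved the median of all genes over both states from 0.08 to -0.16 and upper quartile normalization to 0.30. With GAPDH scaling 4 host genes rose and 4 fell over both states. Every annotated TSS, or a peak within 1000 bp, gave 10 host genes with a peak in each list. With 2 libraries per group, modest differences could not be told from the spread.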
